A study of Mus musculus with 3 samples.

Results

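The cells described here were fibro-adipogenic progenitors (FAPs) of the mouse diaphragm whose transcripts were led by the Dpp4, Sema3c, Efhd1 and Stmn4 genes. They were selected on these measured values: a barcode was kept as a FAP with at least 1 UMI (unique molecular identifier, 1 counted transcript) of Pdgfra, at least 3 of Dcn and none of Ptprc, Pecam1 or Pax7, each FAP was then scored for 7 sets of 4 genes as the mean z-score of log counts per 10000, and a FAP was a member when the Dpp4 Sema3c score was the highest of the 7. This gave 1017 members among 5808 FAPs, and among 12275 barcodes in all. The values of the 28 scored genes, and of any gene that follows them, are therefore descriptions of the choice and not evidence for it.

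FAPs are the Pdgfra-bearing mesenchymal cells that lie between muscle fibers, where they deposit matrix and can become adipocytes or fibroblasts. In adipose tissue and in several connective tissues, fibroblasts that carry Dpp4, Pi16, Cd55 and Ly6a are known as an early, reticular-matrix type that is placed upstream of more committed cells. Dpp4 encodes a cell-surface dipeptidyl peptidase, Sema3c a secreted semaphorin, Efhd1 a calcium-binding mitochondrial protein and Stmn4 a stathmin that binds tubulin.

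The study compared the diaphragms of male mice after 6 months of diet begun at 2 months of age. The 3 groups were wild-type C57BL/6J mice on normal chow (WT CD), wild-type mice on a high-fat diet with 45% of calories from lipid (WT HFD), and B6.129S2-Thbs1tm1Hyn/J mice, which lack thrombospondin-1 in the whole body, on the same high-fat diet (KO HFD); no knockout mice on chow were among these libraries. The mononuclear cells of 2 mice were pooled into 1 single-cell 3′ library per group, so each comparison is between single libraries, has no replicate check and carries no test. The libraries held 4132, 3774 and 4369 barcodes with 34312860, 31967976 and 36478779 UMIs for WT CD first, then WT HFD, then KO HFD, and every set of 3 values below keeps that order. Levels are UMIs per 1000000 UMIs of the summed cells (CPM), and the intervals in parentheses are exact 95% intervals that cover counting error only.

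One library stood apart in a transcript that FAPs do not make. UMIs of Igkc, the immunoglobulin kappa constant gene of B and plasma cells, were found in 110 of 328 members of the WT CD library (33.5%) but in 11 of 369 members of WT HFD and in 9 of 320 of KO HFD, and the other FAPs of the same libraries showed the same pattern at 29.6, 2.27 and 3.37%. One WT CD member alone held 19493 of the 19649 Igkc UMIs, along with 77 UMIs of Dcn and all 4 marker genes. The immunoglobulin gene ratios, the number of lower genes and the FAP2 count in WT HFD against WT CD are given with and without it. Other values include it. Barcodes shared between libraries numbered 7, 7 and 2 for WT CD with WT HFD, for WT CD with KO HFD and for both HFD libraries, and none was a member in both.

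The 4 genes of the rule were found together in many members but not in all of them. UMIs of all 4 were present in 355 members, of exactly 3 in 386, of 2 in 239 and of 1 in 37. Dpp4 stood at 227, 262 and 216 CPM, Sema3c at 343, 460.1 and 401 CPM, Efhd1 at 166, 175 and 169 CPM and Stmn4 at 161, 199.997 and 204 CPM. The mean of the 6 other FAP sets was 52.9, 63.7, 16.2 and 20.3 CPM for the same genes over all libraries, so Dpp4 was the least exclusive of the 4. The median lead of the winning score over the next set was 0.680. It was under 0.1 in 103 members, while 121 cells of the other sets missed membership by less than 0.1; the 5 members nearest the boundary led by 0.000578 to 0.00362, and the 5 nearest outsiders trailed with leads of -0.00118 to -0.00263. The set that came second was most often Dio2 Pthlh Col8a1 (271 members) or Agt Ptx3 Has1 (250 members).

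**Figure D1:**
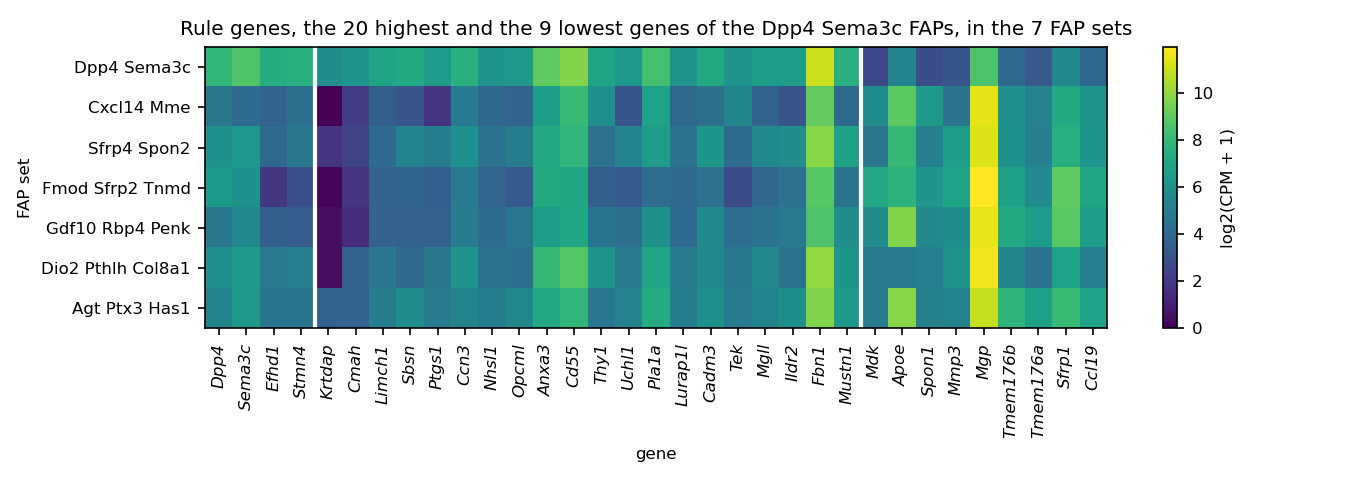
Levels of the 4 rule genes, the 20 highest and the 9 lowest genes of the Dpp4 Sema3c FAPs (columns, separated by white lines) in the 7 FAP sets (rows), as log2(CPM + 1) over all libraries. Krtdap and Cmah are dim in the 6 other sets, whereas Cd55, Anxa3 and Fbn1 are present in all 7 and brightest in the top row; Mgp is bright in every other set and dimmer in the top row.

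The members were then compared with the other FAPs gene by gene. Of 2979 genes, rule genes included, that reached 50 CPM in the members or in the mean of the other sets, 181 were at least 1.5-fold higher in the members (6.08%) and 210 at least 1.5-fold lower (7.05%), with a median log2 ratio of 0.02 over all of them. The ratios that follow are log2 of the members' CPM over the mean CPM of the 6 other sets. The 20 highest and 10 lowest genes outside the rule were chosen among those with the same direction in all 3 libraries, so that agreement is part of the choice.

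The widest gap was in Krtdap, a small secreted protein best known from epidermis, at 48.3, 69.8 and 56.9 CPM against 2.30, 2.86 and 2.60 CPM (log2 ratio 4.50, and 3.504 with every FAP thinned to 3000 UMIs before the rule). Its UMIs came from 33, 52 and 29 members, that is 10.1, 14.1 and 9.06% of them, against 0.793% of the other FAPs and 0 of 448 B cells (up to 0.820%). With every cell thinned to 3000 UMIs the members' shares were 6.13%, 8.45% and 5.36%. Sbsn, which encodes another secreted epidermal protein and lies 31.8 kb from Krtdap on chromosome 7 (Krtdap chr7:30787896-30791097, Sbsn chr7:30751471-30756134, GRCm38), stood at 120.4, 184 and 142 CPM against 22.1, 25.6 and 25.8 CPM (log2 ratio 2.63). Both genes were shared by the same cells: Sbsn UMIs were found in 108 of the 114 members with Krtdap UMIs (94.7%, 88.9 to 98.0%) and in 190 of the 903 without (21.0%, 18.4 to 23.8%), with 31 of 33, 50 of 52 and 27 of 29 in the separate libraries. Sbsn UMIs were in 0.446% of B cells. These 114 cells, a grouping made after the values were seen, had a median of 11464.5 UMIs against 9971 in the other members, and a median lead of 1.28 against 0.611. Outside the members Krtdap was found mainly in the Agt Ptx3 Has1 FAPs, at 12.1 CPM.

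Enzymes and surface proteins followed. Cmah, the hydroxylase that makes N-glycolylneuraminic acid, stood at 60.9, 90.8 and 71.2 CPM against 4.96, 7.36 and 6.45 CPM (log2 ratio 3.58), and Ptgs1, the constitutive cyclooxygenase, at 101, 104 and 67.8 CPM against 20.6, 19.6 and 15.8 CPM (2.31). Cd55, which encodes decay-accelerating factor, a membrane inhibitor of complement, was at 692, 974 and 887 CPM against 208, 282 and 239 CPM (1.81). The lowest library of members lay above all 3 values of the other sets for each of these genes. Thy1, a glycolipid-anchored surface protein, was at 114, 146 and 109 CPM against 39.4, 41.5 and 27.8 CPM (1.79). Anxa3, a phospholipid-binding annexin, Pla1a, a phosphatidylserine-specific phospholipase, and Mgll, the monoacylglycerol lipase, had log2 ratios of 1.83, 1.78 and 1.62. The adhesion genes Opcml (1.84) and Cadm3 (1.67) and the angiopoietin receptor gene Tek (1.64) were also in this group, as were the matricellular gene Ccn3 (2.06) and the microfibril gene Fbn1 (1.55). The remaining genes among the 20 highest were Limch1 (2.78), Nhsl1 (1.87), Uchl1 (1.78), Lurap1l (1.74), Ildr2 (1.60) and Mustn1 (1.53).

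The genes that were lowest in the members included several secreted products of other FAPs. Mgp, an inhibitor of calcification and of BMP ligands, was at 467, 369 and 339 CPM against 3061, 2725 and 2862 CPM (log2 ratio -2.88), and Apoe, the apolipoprotein, at 42.2, 41.4 and 36.8 CPM against 563, 339 and 460.0 CPM (-3.50). The growth factor gene Mdk was at 4.60, 5.88 and 4.56 CPM against 54.5, 52.5 and 64.8 CPM (-3.50). In each case the 3 libraries of members lay far below the 3 of the other sets. The Wnt antagonist gene Sfrp1 (-2.63), the stromelysin gene Mmp3 (-3.09), the chemokine gene Ccl19 (-2.58), the matrix gene Spon1 (-3.14) and the paired genes Tmem176b (-2.72) and Tmem176a (-2.70) were also among the lowest. Thinning to 3000 UMIs changed Spon1 to -2.42, Mmp3 to -2.31 and Tmem176a to -3.33, and a lead of at least 0.25 changed Apoe to -4.20.

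The label of progenitor-like cells was checked against 25 genes reported for Dpp4- or Pi16-bearing fibroblasts in other tissues. Of these, 20 outside the rule reached 50 CPM, and 19 were at least 1.5-fold higher in the members against 6.08% of all genes, with a median log2 ratio of 1.33 against 0.02; a gene passes the minimum more easily where it is high, so the count is a description. Pi16, the secreted peptidase inhibitor for which such fibroblasts are named, was at 3947, 4294 and 3934 CPM against 1844, 1871 and 1931 CPM (log2 ratio 1.11), so it was high in the other FAPs too. Ly6a, which encodes Sca-1, was at 1288, 1737 and 1501 CPM against 658, 1010.3 and 831 CPM (0.87), and Cd248, which encodes endosialin, at 795, 901 and 879 CPM against 289, 340.3 and 327 CPM (1.43). The only tested gene of this list under 1.5-fold was Igfbp6 (0.40), a binding protein for IGF-II. Dact2 (2.99), an inhibitor of Wnt and TGF-β signals, and Bmp7 (2.32), a BMP ligand, had high ratios. They stood at 42.0, 53.2 and 44.7 CPM and at 40.8, 49.6 and 38.9 CPM. Over all libraries both were under the 50 CPM minimum, so they were not among the tested genes. The study's own list of FAP2 genes, which was chosen on these libraries and is not independent, had 11 of 12 tested genes outside the rule at least 1.5-fold higher against 6.08% of all genes, led by Cmah (3.58) and with Cd47 (0.41) as the exception.

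Genes of the adipogenic side of the FAP pool were lower more often than higher. Of 25 listed genes 13 reached the minimum outside the rule; 6 were at least 1.5-fold lower and 1 higher, against 7.05 and 6.08% of all genes, with a median log2 ratio of -0.57. Apoe (-3.50), the lipolysis inhibitor gene G0s2 (-1.59) and the basement membrane collagen gene Col15a1 (-1.50) were the lowest, and Lpl, the lipoprotein lipase, was at 303, 352 and 340.1 CPM against 526, 714 and 649 CPM (-0.92). The single higher gene was Ebf1, a transcription factor of adipocyte commitment, at 634, 691 and 669 CPM against 384, 452 and 437 CPM (0.65). The master regulators Cebpa and Pparg stayed under the minimum in members and other sets alike.

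Matrix genes lay on both sides. All 14 tested genes of the collagen list lay between -1.50 and 0.15 on the log2 scale (median -0.44). Of the 14, 5 were at least 1.5-fold lower and none higher, against 7.05 and 6.08% of all genes. Col3a1, the fibrillar collagen of reticular fibers, was at 2062, 2975 and 2609 CPM against 2853, 3917 and 3259 CPM (-0.38). The elastic fiber list was split, with 4 of 18 genes at least 1.5-fold higher and 6 lower, against 6.08 and 7.05% of all genes. Its higher genes were Fbn1 (1.55), Emilin2 (1.38), Efemp1 (1.31) and Mfap5 (0.88), and its lowest were Mfap4 (-1.66), Mfap2 (-1.45) and elastin itself, Eln (-1.36). Fibronectin, Fn1, was at 1509, 1894 and 1839.9 CPM against 602, 845 and 855 CPM (1.18).

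Hyaluronan, the large glycosaminoglycan of loose matrix, is made at the cell surface from sugar nucleotides. The genes of its synthesis were higher in the members: Ugp2 (0.99) and Ugdh (1.27), whose enzymes make UDP-glucuronate, and the synthase gene Has2, at 96.0, 96.2 and 124 CPM against 39.5, 43.0 and 45.6 CPM (1.28). With Vcan (0.74), a hyaluronan-binding proteoglycan, 4 of the 6 tested genes of this list were at least 1.5-fold higher against 6.08% of all genes, and the median was 0.86 against 0.02. Has2 reached 50 CPM only through the members, where it was high. Has1, the other synthase gene, was used in the rule for the Agt Ptx3 Has1 set and stood at 190.0, 183 and 221 CPM in the members.

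The signaling lists are read against 6.08% of all genes higher and 7.05% lower, and a single higher gene in a list is near that share. Of 18 semaphorin pathway genes only 2 outside the rule reached the minimum, the receptor gene Nrp1 (-0.92) and Sema5a (-1.42), and both were lower. Among TGF-β and thrombospondin genes 1 of 21 was higher and 7 lower, the higher one being the type II receptor gene Tgfbr2, at 317, 419 and 344 CPM against 185, 214 and 184 CPM (0.90). The type I receptor gene Tgfbr1 had a ratio of -0.52 and the co-receptor gene Tgfbr3 of 0.06. Lower genes included Tgfb3 (-1.13), Ccn2 (-1.22), Tgfbi (-1.13) and Thbs4 (-1.65). Of the 9 BMP genes tested outside the rule, Fstl1 (0.82) and Bmp1 (0.70) were higher, and the 5 that were lower included Bmp4 (-0.91), Smoc2 (-1.14) and the BMP target genes Id2 (-1.41) and Id3 (-1.22). In the Wnt list, Dact1 (1.24) and Wnt11 (0.73) were higher and Sfrp1 (-2.63) and Rspo1 (-1.08) lower, of 9 tested outside the rule. Of 15 chemokine and cytokine genes, the scavenging receptor gene Ackr3 was higher (1.02) and 4 were lower, Ccl19 (-2.58) the most. Of 12 complement genes, Cd55 was higher and 5 lower, among them C7 (-0.86), C4b (-1.76) and Clu (-1.77).

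**Figure D2:**
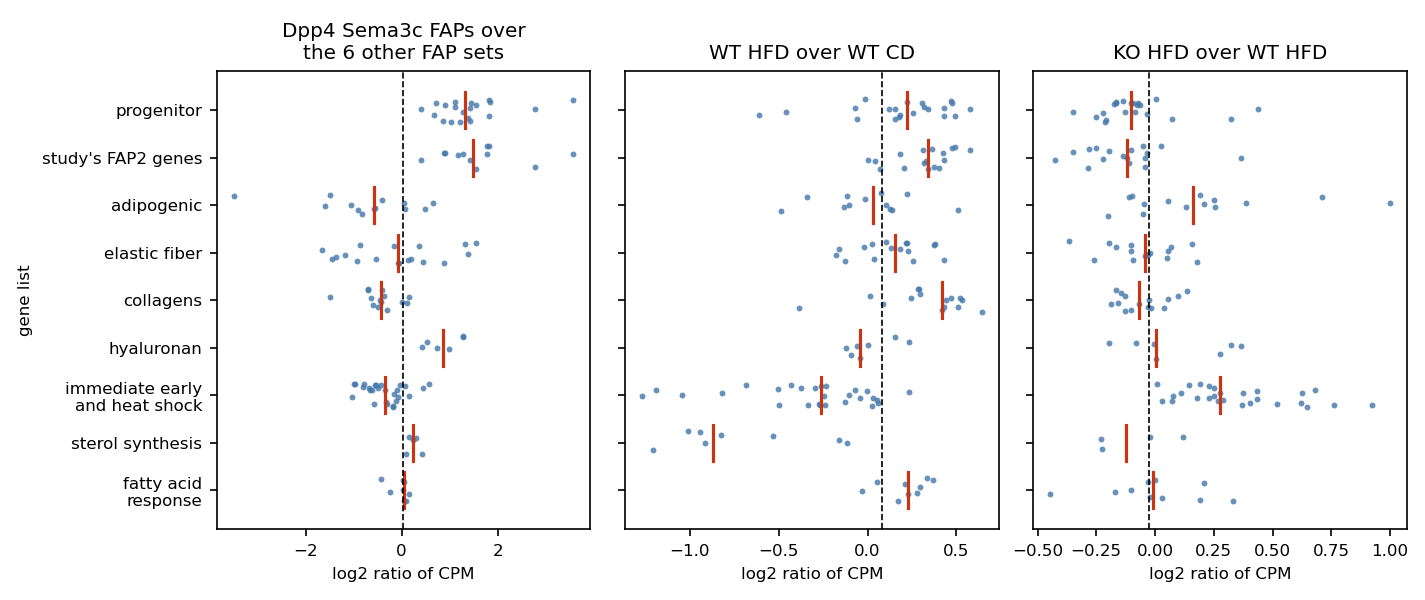
Log2 ratios of CPM (x axis) for the genes of 9 lists (rows) that reached 50 CPM, in 3 comparisons (panels); each point is 1 gene, the red bar is the list's median and the dashed line the median of all genes. Progenitor and hyaluronan genes lie to the right in the first panel (medians 1.33 and 0.86), the 8 sterol genes that reached the minimum to the left in the second (-0.87, or -0.49 without the 4 that reached it only through WT CD, where they were high), and all 27 tested immediate early and heat shock genes lie above 0 in the third (0.28).

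The members carried FAP markers that the rule did not use, and apart from the Igkc-rich cell described above the marker lists of other cell types were low. Col1a1, Lum and Cd34, in that order of genes, stood at 722, 802 and 1252 CPM, against 1121, 1678 and 763 CPM in the other sets. Of 8 listed FAP identity genes 6 were tested outside the rule. Among these 2 were at least 1.5-fold higher in the members and 2 lower, against 6.08 and 7.05% of all genes. The tenocyte list summed to 8.05, 9.21 and 11.9 CPM in the members against 51.4, 79.8 and 67.0 CPM in the other sets, with Tnmd the most abundant and Kera and Chad at 0. The mesothelial list summed to 68.4, 78.3 and 58.7 CPM in the members against 98.8, 88.4 and 75.3 CPM in the other sets, and its most abundant gene was Wt1. Endothelial markers summed to 6.90, 4.35 and 4.26 CPM in the members against 22.7, 25.3 and 23.4 CPM in the other sets, with Pecam1 at 0 by the rule, and macrophage markers to 12.1, 10.5 and 12.8 CPM in the members against 33.6, 28.1 and 12.6 CPM in the other sets, with Adgre1 at 0. Myofiber markers, with Acta1 the most abundant over all libraries, summed to 32.2, 12.8 and 24.3 CPM in the members against 22.5, 18.9 and 21.7 CPM in the other sets, so the members were the lower only in WT HFD. Adipoq, Cidec and Lep, which mark adipocytes, were at 0 in the members of all 3 libraries.

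The members also had more UMIs than other FAPs and less RNA of the immediate early and heat shock genes, which are known to respond when tissue is dissociated. Their median was 10141 UMIs against 8411, with 16.96% of UMIs from ribosomal protein genes against 14.9% and 2.73% mitochondrial against 3.01%. The immediate early and heat shock list took a median of 17753 CPM per member against 24854 CPM per other FAP, and 8 of its 27 genes were at least 1.5-fold lower in the members against 7.05% of all genes, led by Fosb (-1.03) and Nr4a1 (-0.99). The 2 sets most like the members by correlation shared part of this. The Agt Ptx3 Has1 FAPs had medians of 9801 UMIs, 16.7% ribosomal and 2.49% mitochondrial but 29294 CPM of the list. The Sfrp4 Spon2 FAPs had 9408 UMIs and 18989.5 CPM of the list. Whether depth or this response takes part in the differences above was not tested. As a description of likeness, log2 CPM correlated across 3313 genes at r = 0.945 with the Agt Ptx3 Has1 set, 0.941 with Sfrp4 Spon2 and 0.933 with Dio2 Pthlh Col8a1, down to 0.859 with Fmod Sfrp2 Tnmd. By the number of genes 1.5-fold apart the order was another, with 377 for Sfrp4 Spon2, 411 for Dio2 Pthlh Col8a1 and 448 for Agt Ptx3 Has1. These sums come from the same 3 libraries.

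Within the members the leading genes followed the lead of the score, which is part of the rule, so the order below is a description of the choice. When the 1017 cells were ordered by lead and divided into 3 equal groups of 339, Pi16 stood at 3133, 3717 and 5277 CPM from the smallest to the largest lead, Cd55 at 529, 758 and 1249 CPM and Fbn1 at 1264, 1884 and 2834 CPM. Cmah stood at 31.1, 58.9 and 131 CPM in the same order, and Ugdh at 256, 361 and 454 CPM. All 5 genes were lowest where the lead was small and highest where it was large. These genes lie outside the rule but follow its markers. Even the group with the smallest lead lay above the mean of the other sets, which was 1881 CPM for Pi16, 244 for Cd55 and 149 for Ugdh. Among genes of other sets, Cxcl14 ran the other way at 66.4, 37.4 and 13.3 CPM, and Gdf10 and Sfrp4 fell too. Has1 (173, 225 and 192 CPM) and Dio2 (12.0, 14.5 and 4.88 CPM) were highest in the middle group. The groups had median depths of 9639, 10016 and 10730.0 UMIs.

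**Figure D3:**
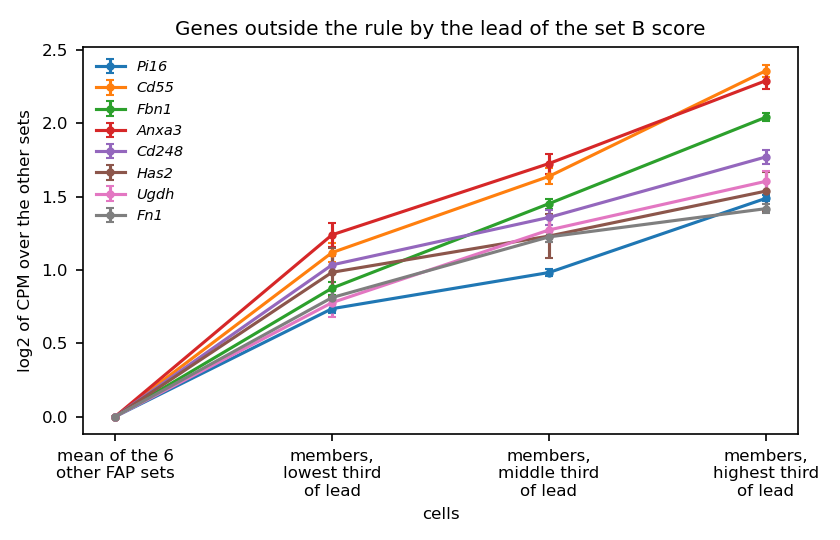
Log2 of CPM over the mean of the 6 other FAP sets (y axis) for 8 genes outside the rule in the members, divided into 3 groups of 339 cells by the lead of their score (x axis); bars are 95% counting intervals. All 8 lines climb from left to right, Cd55 from 529 to 1249 CPM and Pi16 from 3133 to 5277 CPM.

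Thbs1, the gene removed in the knockout, was counted in all 3 libraries. Its level in the members was 144 CPM (131 to 157) in WT CD, 122 CPM (111 to 133) in WT HFD and 173 CPM (159 to 188) in KO HFD. The order differed outside the members. All FAPs stood at 196, 239 and 230 CPM and all barcodes at 136, 202 and 163 CPM, with WT HFD the highest in both. The counts do not say which part of the transcript a UMI came from, so they do not check the deletion, and the KO library is named here by its label. In WT HFD the members lay below the mean of the other sets (247 CPM), where the Cxcl14 Mme, Dio2 Pthlh Col8a1 and Agt Ptx3 Has1 FAPs were the highest over all libraries at 375, 312 and 312 CPM. Cd47, which encodes a thrombospondin-1 receptor, was at 670.1, 691 and 635 CPM in the members against 499, 525 and 489 CPM.

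The members formed a larger share of FAPs in the WT HFD library than in the other 2. They were 328 of 1930 FAPs, or 16.99% (15.3 to 18.7%) in WT CD, 369 of 1779 FAPs, or 20.7% (18.9 to 22.7%) in WT HFD and 320 of 2099 FAPs, or 15.2% (13.7 to 16.9%) in KO HFD. The WT HFD share exceeded that of WT CD by 3.75 percentage points (1.23 to 6.27), and the KO HFD share differed from that of WT HFD by -5.50 percentage points (-7.94 to -3.07). KO HFD and WT CD differed by -1.75 percentage points (-4.03 to 0.521), an interval that includes 0, and with each FAP thinned to 3000 UMIs before the rule KO HFD lay above WT CD (14.0, 18.5 and 14.5%). The intervals describe cells drawn from these libraries and not differences between mice. The z-scores spanned all FAPs, so the share also follows a marker's level in the whole library. With z-scores taken within each library, the shares were 18.2, 18.9 and 16.1% and the differences were 0.700 and -2.78 percentage points. The 2 sets most like the members by correlation had other orders, Agt Ptx3 Has1 at 8.13, 10.2 and 13.2% and Sfrp4 Spon2 at 12.7, 10.9 and 13.2%. The Dio2 Pthlh Col8a1 set, the next by correlation, had the same order as the members at 13.4, 15.5 and 10.7%. There KO HFD differed from WT HFD by -4.79 percentage points (-6.94 to -2.66). The Gdf10 Rbp4 Penk set had the largest opposite difference, -6.82 percentage points (-9.17 to -4.45) between WT HFD and WT CD, and the shares of the 7 sets sum to a fixed whole.

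**Figure D4:**
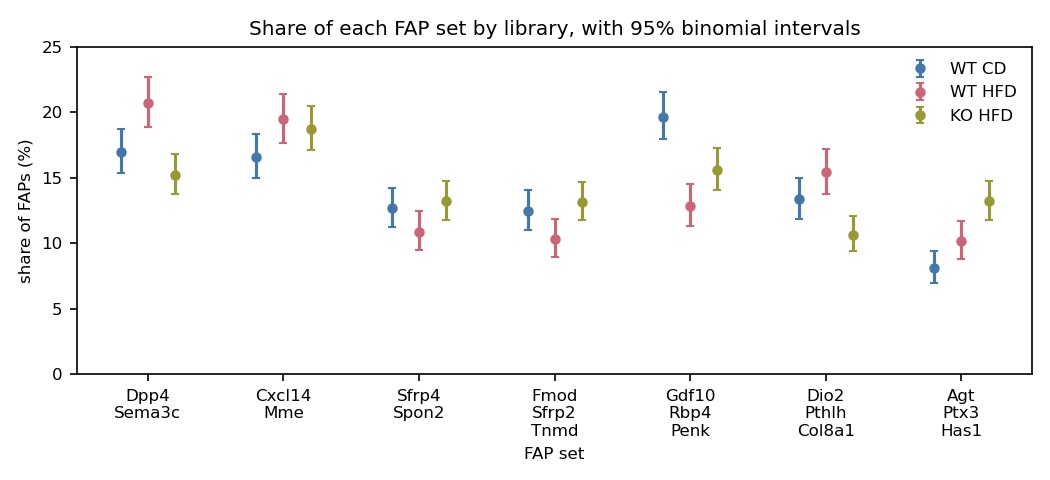
Share of all FAPs (y axis, %) held by each of the 7 FAP sets (x axis) in each of the 3 libraries; points are shares and bars exact 95% binomial intervals of the cells counted. The Dpp4 Sema3c FAPs stand at 16.99, 20.7 and 15.2%, and their WT HFD interval lies above those of the other 2 libraries.

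Thy1, a surface marker used to sort fibroblasts, was also followed cell by cell. Its UMIs were found in 47.3% (41.7 to 52.8%) of members in WT CD, 55.0% (49.8 to 60.2%) in WT HFD and 43.1% (37.6 to 48.8%) in KO HFD, at median depths of 10077.5, 10469 and 9964 UMIs. In the other FAPs the shares were 18.7% (16.8 to 20.7%), 24.6% (22.4 to 26.9%) and 15.0% (13.3 to 16.7%), at 8252, 8880.5 and 8092 UMIs. After thinning of every cell to 3000 UMIs, which left out 2, 2 and 3 members, the members' shares were 24.2%, 32.2% and 22.4%. Those of the other FAPs were then 9.55% (8.14 to 11.1%), 10.0% (8.50 to 11.7%) and 8.05% (6.82 to 9.42%), with overlapping intervals. WT HFD was the highest in each series, and the intervals of the members in WT CD and WT HFD overlapped. B cells, which in the mouse should lack the gene, had Thy1 UMIs in 0.893% (0.244 to 2.27%) of 448 cells at a median of 8238.5 UMIs.

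The first contrast asks how the members of the WT HFD library differed from those of WT CD. Of 2916 genes that reached 50 CPM in 1 of the libraries, 18 were at least 1.5-fold higher in WT HFD (0.617%) and 30 lower (1.03%), with a median log2 ratio of 0.08; few genes were far apart, and no gene that was higher reached 2-fold. Higher genes thus made up 37.5% of the 48 calls. Counted by distinct symbol, 1976 of 2915 tested genes had ratios above 0 and 939 below. Counts of tested list genes on each side of 0 are read against these. With TMM scaling, which centers the genes on one another, the calls were 9 higher and 41 lower (18.0% higher), and with each cell given the same weight 24 and 25 (49.0% higher). The balance turned under 3 alternatives, to 136 higher and 58 lower (70.1% higher) after thinning to 3000 UMIs, 107 and 71 (60.1%) at a minimum of 20 CPM and 31 and 27 (53.4%) with a lead of at least 0.25; the cause of these turns was not tested. A gene near the minimum can reach it only through the library where it is high, as Ackr2, Rtn1, Gxylt2, Ide and Kcnk2 did through WT HFD and all but Hspa1a and Hspa1b of the 10 lowest genes through WT CD.

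Ackr2, an atypical receptor that removes inflammatory chemokines, stood at 30.2, 58.1 and 53.8 CPM, a log2 ratio of WT HFD over WT CD of 0.94 (0.60 to 1.29); it was low in the other sets, at 4.76, 8.81 and 7.25 CPM. Ackr4, which removes the ligands of CCR7, was at 64.9, 105 and 75.4 CPM (0.70, 0.46 to 0.94). Both were highest in WT HFD. Flrt2, a guidance and adhesion protein, was at 71.3, 129 and 102 CPM (0.85, 0.63 to 1.08), and Prg4, which encodes lubricin, at 160.1, 271 and 212 CPM (0.76, 0.61 to 0.91). The other FAPs had like ratios of 0.67 and 0.73. Rtn1, a reticulon, and Golim4, a Golgi membrane protein, had ratios of 0.88 (0.55 to 1.23) and 0.73 (0.55 to 0.90), the latter against 0.31 in the other sets. Gxylt2 (0.70, 0.39 to 1.02), Selenbp1 (0.67, 0.40 to 0.95), the insulin-degrading enzyme gene Ide (0.66, 0.33 to 0.99) and the potassium channel gene Kcnk2 (0.65, 0.33 to 0.98) completed the 10, and Kcnk2 had a ratio of -0.04 in the other sets.

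Of the 10 genes that were lowest in WT HFD, 5 were genes of B cells and antigen-presenting cells whose size rested on 1 or 2 members. Igkc stood at 5647, 2.81 and 2.74 CPM, but at 45.3 CPM in WT CD without the richest member, which also held 329 of 341 Jchain UMIs and 1974 of 2003 Ighm UMIs. The log2 ratios of these 3 genes were -10.97, -8.58 and -8.55 with that member and -4.01, -3.77 and -2.46 without it, so a lower level in WT HFD was left, with Igkc UMIs still in the many WT CD cells noted above. Another WT CD member held 340 of 512 Cd74 UMIs and 192 of 207 H2-Ab1 UMIs. Cd74 stood at 147, 3.58 and 4.56 CPM and H2-Ab1 at 59.5, 2.30 and 3.95 CPM, with WT CD at 49.9 and 4.35 CPM without that member. The member richest in Igkc held 153 more of the Cd74 UMIs, so most of the 49.9 CPM came from that cell. The log2 ratios of Cd74 and H2-Ab1, -5.36 and -4.69, changed to -0.88 for Cd74 after thinning to 3000 UMIs and to -0.73 for H2-Ab1 with at least 2 marker genes required. The B cell marker Cd79a stood at 4.02, 0.256 and 0 CPM in the members, and Ms4a1 was at 0 in every library. Without the member richest in Igkc 28 genes were lower in place of 30.

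The 5 others were not immune genes. Igfbp3, which binds and carries IGFs, stood at 151, 39.1 and 35.3 CPM, a log2 ratio of -1.95 (-2.22 to -1.69) against -0.71 in the other sets, and was found in 67, 28 and 23 members. Sult1e1, the estrogen sulfotransferase, was at 114, 37.9 and 54.8 CPM (-1.59, -1.87 to -1.31), close to the ratio of -1.65 in the other sets; after thinning the ratio was -0.999. Both reached the minimum only through WT CD among these 2 libraries and were named for their ratio, so the high WT CD value is part of the choice; the KO HFD values, which the choice did not use, were below WT CD as well. The chaperone genes Hspa1a and Hspa1b are near-identical copies between which reads may be split; their summed level was 449, 192 and 335 CPM. Insig1, a sensor that holds back sterol synthesis, was at 52.6, 22.8 and 33.2 CPM (-1.21, -1.59 to -0.83).

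**Figure D5:**
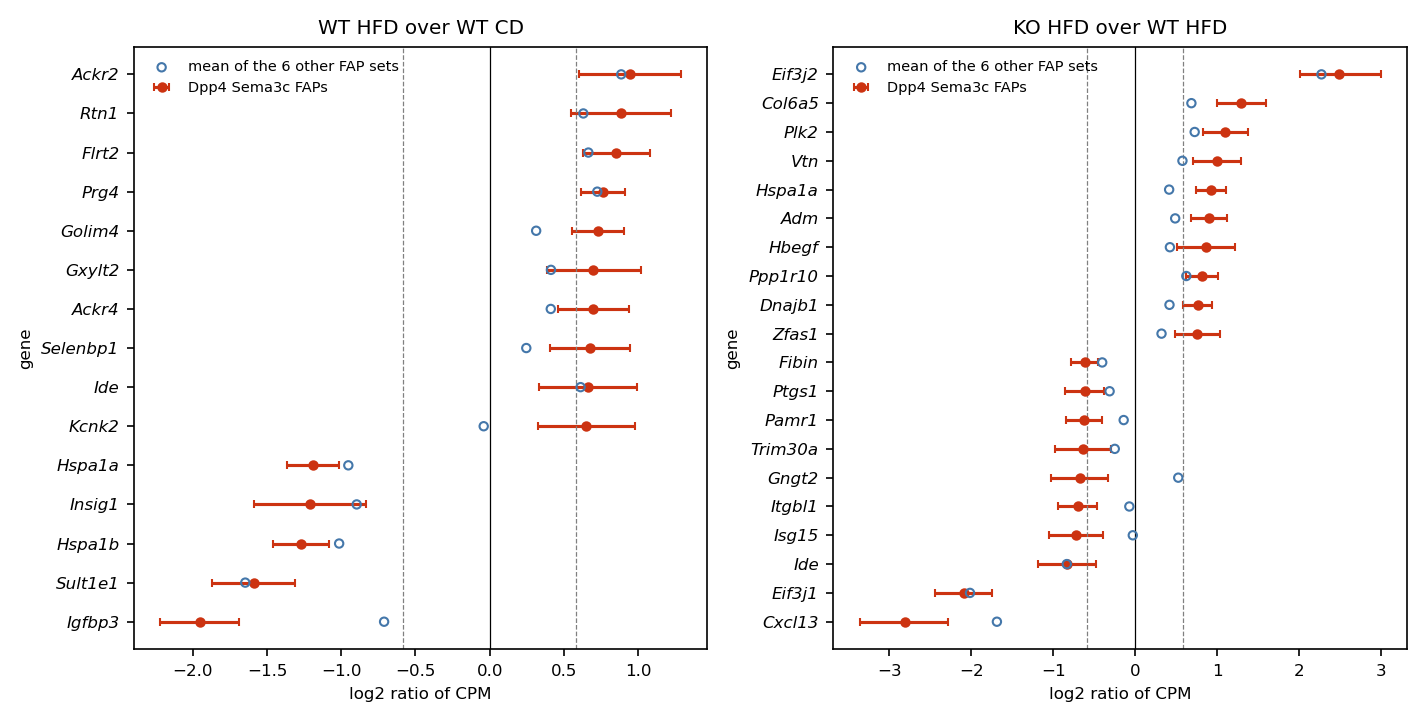
Log2 ratios of CPM (x axis) for the genes named in each contrast (y axis) in the Dpp4 Sema3c FAPs (red, with 95% counting intervals) and in the mean of the 6 other FAP sets (open circles); dashed lines mark 1.5-fold. Igkc, Jchain, Ighm, Cd74 and H2-Ab1 lie beyond the left edge of the first panel at -4.69 or lower and are not drawn; most open circles lie on the same side of 0 as the red points, Kcnk2 in the first panel and Gngt2 in the second being the exceptions.

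Genes of sterol synthesis had ratios mostly below 0 in WT HFD. Of 26 listed genes 8 reached the minimum, 4 of them only through WT CD, where they were higher, so that their direction follows from the minimum. The 4 that reached it in both libraries had ratios below 0, 2 of them past 1.5-fold against 1.03% of all genes, with a median log2 ratio of -0.49 against 0.08 for all genes; with no minimum 25 of the 26 had ratios below 0. Of the genes described next, Fdps reached it in both libraries and Hmgcs1 only through WT CD. Fdps, which makes farnesyl diphosphate, was at 99.7, 51.9 and 44.4 CPM (-0.94, -1.20 to -0.69) and Hmgcs1, whose enzyme makes HMG-CoA, at 74.7, 39.6 and 46.5 CPM (-0.91, -1.21 to -0.62). In the other sets the same genes had ratios of -0.95 and -0.30, so Hmgcs1 differed less there. KO HFD was near WT HFD for both genes, with log2 ratios of KO HFD over WT HFD of -0.23 and 0.23 and intervals that include 0.

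The listed collagen genes ran in the opposite direction. Of 15 tested 14 had ratios above 0, against 1976 of 2915 of all genes. Their median log2 ratio was 0.42 against 0.08 for all genes. Only Col5a3 (172, 268 and 239 CPM, log2 ratio 0.64, 0.50 to 0.79) passed 1.5-fold, 1 of 15 against 0.617% of all genes. Col3a1 stood at 2062, 2975 and 2609 CPM (0.53, 0.49 to 0.57) and Col1a2 at 1513, 2036 and 1865 CPM (0.43, 0.38 to 0.48). Within the list Col12a1 was the exception (-0.39, -0.62 to -0.15). Col6a5, a collagen gene outside the list, was also lower in WT HFD, with 186 UMIs in 328 WT CD members and 137 UMIs in 369 WT HFD members. After thinning of every FAP to 3000 UMIs, 11 of the 15 listed genes were above 0 with a median of 0.20. The ratios in the other sets were 0.44, 0.46 and 0.33 for Col5a3, Col3a1 and Col1a2. All 17 of the study's FAP2 genes had ratios above 0, against 1976 of 2915 of all genes. The list was chosen on these libraries and includes genes of the rule. The 4 marker genes, whose values chose the members, were all above 0 in this contrast. The median of the 17 was 0.34, and none passed 1.5-fold. Without the member richest in Igkc 16 of the 17 were above 0. Cmah (0.58, 0.33 to 0.83), Cd55 (0.49, 0.42 to 0.57) and Limch1 (0.48, 0.28 to 0.67) were the highest and Has2 (0.00, -0.21 to 0.22) the lowest.

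Of 21 tested progenitor genes 16 had ratios above 0 (median 0.22), near the share of all genes (1976 of 2915). None of the 19 that reached the minimum in both libraries passed 1.5-fold. Smpd3, a sphingomyelinase gene that reached it only through WT CD, where it was high, stood at 67.5, 44.2 and 59.9 CPM (-0.61, -0.90 to -0.32), a single lower gene of 21 against 1.03% of all genes. Among fatty acid response genes 8 of 9 were above 0 (median 0.23), against 1976 of 2915 of all genes, with none past 1.5-fold. Angptl4, a secreted lipase inhibitor, stood at 13.8, 47.3 and 28.9 CPM, under the 50 CPM minimum; its counts were 48, 185 and 95 UMIs in 33, 121 and 75 members, a log2 ratio of 1.78 (1.31 to 2.27) for WT HFD over WT CD. Of the immediate early and heat shock genes 22 of 27 were below 0 (median -0.26, and -0.13 after thinning to 3000 UMIs) and 5 were at least 1.5-fold lower against 1.03% of all genes, Hspb1 among them at 657, 319 and 493 CPM (-1.04, -1.14 to -0.94).

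The second contrast asks how the members of the KO HFD library differed from those of WT HFD. Of 2945 genes tested 23 were at least 1.5-fold higher (0.781%) and 12 lower (0.407%), with a median log2 ratio of -0.03. Counted by distinct symbol, 1266 of 2944 had ratios above 0 and 1678 below. Some genes among the 10 largest of each direction cannot be read singly, and Eif3j2, Plk2, Col6a5, Vtn and Hbegf reached the minimum only through KO HFD and Eif3j1, Cxcl13, Ide, Isg15, Gngt2 and Trim30a only through WT HFD, in each case where they were high. Eif3j2 stood at 10.1, 11.0 and 61.7 CPM (2.49, 2.01 to 2.999) and Eif3j1, its near-identical copy, at 85.6, 108 and 25.6 CPM (-2.08, -2.44 to -1.74); their sum was 95.7, 119 and 87.3 CPM, a ratio of -0.45 (-0.67 to -0.23), and the other FAPs gave the same pair of ratios (2.27 and -2.01). Eif3j1 (chr2:122028546-122056598, GRCm38) lies 3.90 Mb from Thbs1 (chr2:118111876-118127133) on chromosome 2, and whether strain sequence around the deleted gene takes part was not tested.

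Col6a5, a collagen VI chain, stood at 53.5, 35.0 and 86.1 CPM, a log2 ratio of KO HFD over WT HFD of 1.30 (0.997 to 1.60), and Vtn, which encodes vitronectin, at 50.9, 40.2 and 80.3 CPM (0.9999, 0.71 to 1.29). Adm, which encodes the vasodilator adrenomedullin, was at 111, 69.1 and 129 CPM (0.90, 0.68 to 1.13), and Hbegf, a ligand of the EGF receptor, at 41.1, 28.4 and 51.7 CPM (0.87, 0.51 to 1.22). These 4 genes were named for their ratio, so a low WT HFD value is part of the choice. KO HFD was above WT CD as well. Plk2 (1.10, 0.83 to 1.38), Ppp1r10 (0.82, 0.63 to 1.02), Zfas1 (0.76, 0.49 to 1.03) and the chaperone genes Dnajb1 (0.76, 0.58 to 0.94) and Hspa1a (0.92, 0.74 to 1.11) were the remainder; summed with its copy Hspa1b, the last had a ratio of 0.80, 0.67 to 0.94. All 27 immediate early and heat shock genes tested had ratios above 0 (median 0.28), and 6 passed 1.5-fold against 0.781% of all genes. The summed list stood at a median of 18738, 15157 and 19269 CPM per member, and in the other FAPs at 25323, 22119.8 and 26878 CPM, so WT HFD was lowest in both. The part of cell handling in this difference was not tested.

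Among the genes that were lower in KO HFD, Cxcl13, the chemokine that attracts B cells, had the widest gap at 51.7, 72.1 and 10.3 CPM (-2.80, -3.36 to -2.29), from 17, 28 and 6 members; the ratio was -2.03 after thinning and -3.66 with a lead of at least 0.25. The other sets had 167, 88.0 and 27.4 CPM, so there WT CD was the highest and WT HFD was between. Isg15, an interferon-induced ubiquitin-like protein, was at 46.0, 59.1 and 35.9 CPM (-0.72, -1.05 to -0.39) and Trim30a at 35.3, 52.7 and 34.1 CPM (-0.63, -0.97 to -0.29). The interferon list had 5 of 10 tested genes on each side of 0, and with no minimum 7 of its 26 genes were above 0 and 19 below. Ide was at 34.5, 54.5 and 30.7 CPM (-0.83, -1.18 to -0.48), with the same ratio of -0.83 in the other sets. Itgbl1 (-0.70, -0.94 to -0.46), Pamr1 (-0.62, -0.84 to -0.41), Ptgs1 (-0.61, -0.86 to -0.38), Fibin (-0.61, -0.78 to -0.45) and Gngt2 (39.4, 52.4 and 32.9 CPM; -0.67, -1.02 to -0.33) were the rest, and Itgbl1 and Isg15 were close to 0 in the other sets (-0.07 and -0.03).

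Of the study's 17 FAP2 genes, rule genes included, 15 had ratios below 0, against 1678 of 2944 of all genes. Their median was -0.12 against -0.03 for all genes, and none passed 1.5-fold. Of the 4 marker genes of the rule 3 were below 0. Thy1 was the lowest of the 17 (-0.43, -0.62 to -0.23) and Has2 the highest (0.36, 0.16 to 0.57). Of 15 listed collagen genes 11 were below 0 with a median of -0.07, against 1678 of 2944 and -0.03 for all genes. Of 21 progenitor genes 17 were below 0 with a median of -0.10. Col6a5, outside the collagen list, was more than 1.5-fold higher, as given above. Cd55 stood at 692, 974 and 887 CPM and Fbn1 at 1673, 2250.3 and 2095 CPM, so in both the KO HFD value lay nearer to WT HFD than to WT CD. Thy1 (114, 146 and 109 CPM) and Dpp4 (227, 262 and 216 CPM) were at their lowest in KO HFD. Of the 10 chemokine and cytokine genes that reached the minimum in both libraries none passed 1.5-fold. Cxcl10 (37.6, 49.4 and 78.8 CPM; 0.67, 0.40 to 0.95) and the rule gene Cxcl14 (28.7, 33.2 and 54.4 CPM; 0.71, 0.38 to 1.05) reached it only through KO HFD and Cxcl13 only through WT HFD, in each case where they were high, so their directions follow from the minimum.

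UMIs of 4 genes of dividing cells were rare in the members, though less so than in the other FAPs. The summed level of Mki67, Top2a, Cdk1 and Ccnb2 was 30.5, 28.1 and 77.6 CPM in the members against 1.38, 18.2 and 3.86 CPM in the other sets. Cells with UMIs of at least 2 of these 4 genes, a threshold chosen after the values were seen, numbered 11 of 1017 members (1.08%, 0.541 to 1.93%) and 7 of 4791 other FAPs (0.146%, 0.0588 to 0.301%). By library there were 2, 5 and 4 such members, and 1, 5 and 1 such cells among the other FAPs. After thinning to 3000 UMIs the counts were 7 of 1010 members (0.693%) and 3 of 4719 other FAPs (0.0636%). The 11 members had a median of 21904 UMIs, above that of all members. These counts are too small to order the libraries or to separate the members from the Agt Ptx3 Has1 and Sfrp4 Spon2 FAPs. The wider list of 19 cell cycle genes did not share the direction of the 4 genes. Of the 5 that reached the minimum, 1 was above 0 and 4 below in the members over the other sets. Their median log2 ratio was -0.11, and none passed 1.5-fold.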

How the data were processed

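The authors mapped 10x Genomics 3′ reads to GRCm38 with Cell Ranger, listed as version 6.1.1 in the submitters' processing notes, and deposited filtered matrices of raw UMI counts per gene and barcode, 1 for each of 3 libraries. The diaphragms had been digested with collagenase II, and dead cells were excluded with DAPI. The libraries had medians of 7632.5, 8041.5 and 7554 UMIs per barcode, with no barcode under 502 UMIs. All 12275 deposited barcodes and all 32285 genes were used, and doublets were kept; Scrublet called 151 barcodes (1.23%), of which 1 was a member.

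From the counts, FAPs were gated and assigned as described, and UMIs were summed over the cells of a set and library and scaled to CPM. The 95% intervals are exact Poisson for levels, exact conditional binomial for log2 ratios, Clopper-Pearson for shares and Newcombe for a difference between shares. PCR duplicates had been collapsed by UMI, and the intervals leave out the spread between mice. With 1 library per group no test was run; a gene was called at 1.5-fold with at least 50 CPM in 1 of the sums compared. Named genes were the 4 markers and Thbs1, the 20 highest and 10 lowest genes against the mean of the 6 other sets with the same direction in every library and outside the 28 rule genes, the 10 largest differences per contrast and direction, and list members; Gm and Rik genes were left unnamed. A few genes that the rule names are not reported here. Krtdap and Sbsn co-detection, the cycling cells, Angptl4 and Smpd3 were singled out after their values were seen. The members and the gene lists were chosen with earlier results of these data known. For the correlation between sets a pseudocount of 1 CPM was used over genes that reached the minimum in any set. B cells were barcodes with at least 2 UMIs of Cd79a, at least 1 of Ptprc and none of Dcn.

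Alternatives changed the cell filter, doublets, FAP gate, lead, number of marker genes, z-scores, depth, scaling (edgeR 4.0.16 TMM in R 4.3.3), cell weights, minimum, fold and reference. Interval coverage was checked on simulated counts. Python 3.11.15, numpy 2.4.6, scipy 1.17.1, pandas 2.3.3, scanpy 1.11.5 and matplotlib 3.10.9 were used.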

Additional observations from a re-analysis of the deposited data

Results flagged for a closer look

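Of the genes named in the 2 contrasts, 2 had ratios on opposite sides of 0 in the members and in the other FAPs. Kcnk2, a potassium channel gene whose level in the members is limited by the choice of cells, since it belongs to the rule for the Cxcl14 Mme set, had a log2 ratio of WT HFD over WT CD of 0.65 in the members and of -0.04 in the mean of the 6 other sets. Gngt2, a G protein gamma subunit gene, had a log2 ratio of KO HFD over WT HFD of -0.67 in the members and of 0.53 in the mean of the other sets. Both genes reached 50 CPM in the members only in WT HFD, where they were high, at 35.3 and 55.5 CPM for Kcnk2 in WT CD and WT HFD and at 52.4 and 32.9 CPM for Gngt2 in WT HFD and KO HFD, so the members' direction follows from the minimum. With 1 library per group, the difference between members and other FAPs was not tested for either gene.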

How the results depend on the processing

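The share was highest in WT HFD under each alternative that recomputed it, and lowest in KO HFD except after thinning of each FAP to 3000 UMIs, when it was 14.0% in WT CD, 18.5% in WT HFD and 14.5% in KO HFD. With a lead of at least 0.25 it was 12.7, 17.03 and 10.8%. With z-scores within each library the differences were 0.700 percentage points for WT HFD minus WT CD and -2.78 for KO HFD minus WT HFD. Of genes called against the other sets, 307 were higher and 377 lower at 20 CPM, and 72 and 103 at 2-fold. In WT HFD against WT CD, higher genes numbered 31 with the lead, 31 with 2 Pdgfra and 10 Dcn UMIs required, 35 with z-scores within each library, 136 after thinning, 9 with TMM, 107 at 20 CPM and 0 at 2-fold; lower genes numbered 58 after thinning, 71 at 20 CPM and 13 at 2-fold. In KO HFD against WT HFD, higher genes numbered 62 after thinning, 69 at 20 CPM and 3 at 2-fold, and lower genes 22 with the stricter gate, 60 after thinning, 7 with cells weighted alike, 56 at 20 CPM and 2 at 2-fold. The minimum of 20 CPM tests 5838 genes in place of 2916 in the first contrast and the 2-fold threshold is stricter by construction; the cause of the other changes was not tested. The remaining 83 values stayed within 1.5 times the main count or within the main share's or difference's interval. Moves included 12 to 18 lower genes in KO HFD with the lead and -5.50 to -3.94 percentage points for KO HFD minus WT HFD after thinning. Ratios of the 20 highest, the 10 lowest and the 10 largest genes per contrast and direction were recomputed, at most 70 per alternative. Of these values 603 moved by less than their interval, 104 by more and none changed sign. Other list genes were followed as counts on each side of 0, and some crossed it. With TMM, 14 of 17 FAP2 genes and 2 of 9 complement genes were above 0 in WT HFD over WT CD, against 17 and 8 in the main setting. Leaving out the member richest in Igkc was an alternative chosen after seeing the data. Leaving out a replicate was not possible with 1 library per group. No paired analysis was possible because each group had a single library. Depth limits genes under 50 CPM, and no result has an error between mice.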
